A study of Mus musculus with 12 samples.

Results

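Of 3509 rows in a count table of small RNA from mouse extracellular vesicles, 1531 were predicted loci, and 517 of these had at least 1 count in all 12 libraries. They are described here. A predicted locus is a place in the genome where stacked reads looked like a small RNA that has no registered name, and the table calls each by a chromosome and a number, such as chr2_48539. The 517 were chosen by their counts alone, at least 1 in every library, so their presence in all groups is the rule and not a finding. Vesicles had been collected from cultured bone marrow mesenchymal stem cells of SPF-grade C57BL/6 mice. Titles sort the libraries into DZ, aFM, NY and PLL, 3 to a group and lettered A, B and C. All 12 carry the same tissue, cell type, strain and antigen treatment in their other labels. The series' design text describes 3 hydatid antigen preparations, ESPs, HCF and pLL, given at 2 µg/ml for 48 h. PLL carries the name of one of them, the labels do not say what DZ, aFM and NY stand for, and no label names an untreated control. Whether the libraries of a group are separate cultures or animals is not stated, and p-values here cover the spread between libraries only, which may be technical.

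Extracellular vesicles are membrane particles that cells release with a cargo of RNA, and most of that RNA is short. A microRNA is cut from a hairpin precursor by Drosha and Dicer, is loaded into an Argonaute protein and recognises target messages through the seed, bases 2 to 8 of the mature strand. Programs that predict unregistered microRNAs look for read stacks on a sequence that could fold into such a hairpin. In vesicles, pieces of transfer RNA, ribosomal RNA, Y RNA and vault RNA are also abundant, and a prediction alone does not show which kind of RNA the reads came from.

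The table pairs no predicted locus with a sequence, a strand or a position, and their sequences and the genes around them were not analysed here. The number in a name is a serial number and not a coordinate: it ran from 305 to 86830, and its ranges on successive chromosomes, taken in the text order of their names, did not overlap. The third most abundant locus, chr5_60294, had annotated microRNAs as the 3 rows with the most similar levels over the 12 libraries. They were let-7c-5p, miR-143-3p and miR-7688-5p, with Pearson r of 0.890, 0.878 and 0.874 for log2(CPM + 1), where CPM is a count scaled by the total of all counts in its library. Their total counts were 18468, 22711 and 187, so miR-7688-5p was faint. The mature strands of let-7c-5p and miR-7688-5p are printed to show which known small RNAs that locus moved with, with the seed in capitals (RefSeq, build GRCm38.p6). They say nothing of the locus's own sequence.

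let-7c-5p: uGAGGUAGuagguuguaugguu

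miR-7688-5p: uAGCUGGGcaugaucugaugagc

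let-7c-5p is encoded by Mirlet7c-1 (chr16:77599672-77599693, plus strand) and Mirlet7c-2 (chr15:85706616-85706637, plus strand), and miR-7688-5p by Mir7688 (chr10:93433107-93433129, plus strand). let-7 is best known for restraining proliferation as cells differentiate, and miR-143 is abundant in mesenchymal and smooth muscle cells.

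The 517 loci were 33.8% of the predicted loci and held most of the counts in every library but PLL A. The rule favours loci with many counts. Library totals ran from 68647 to 214303 counts, so that 1 count was worth 4.67 to 14.6 CPM. The loci took 84.7%, 74.9% and 76.0% of counts in DZ A, B and C, 82.1%, 78.0% and 74.0% in aFM, 70.0%, 61.7% and 72.7% in NY, and 34.1%, 61.1% and 50.6% in PLL. DZ and aFM overlapped, and all 3 PLL libraries were below every DZ, aFM and NY library. The counting interval was narrow even in PLL A, at 33.8% to 34.4% (95%, Wilson, counting error only). Group means were 78.6% ± 5.38 for DZ, 78.0% ± 4.06 for aFM, 68.1% ± 5.70 for NY and 48.6% ± 13.6 for PLL (SD, n = 3). Without PLL A the PLL mean was 55.8%. Annotated microRNAs took most of the remaining counts, with 17.5% ± 6.23, 15.4% ± 4.61, 23.7% ± 6.23 and 43.9% ± 15.9 in the same order (SD, n = 3). The other 1014 predicted loci held 2.40% to 9.70% of a library. Because all shares of a library sum to the same total, a fall of one kind of row cannot be told apart from a gain of another. Annotated mesenchymal microRNAs were present, 7 of 8 listed with a count in every library and summing to 10.8% to 21.7% of annotated counts. So were erythroid and leukocyte ones (3 of 7 in every library, 3.58% to 12.6%) and ones of other tissues (2 of 8, 0.224% to 4.19%). The part of other cells in the levels of the loci was not tested.

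**Figure D1:**
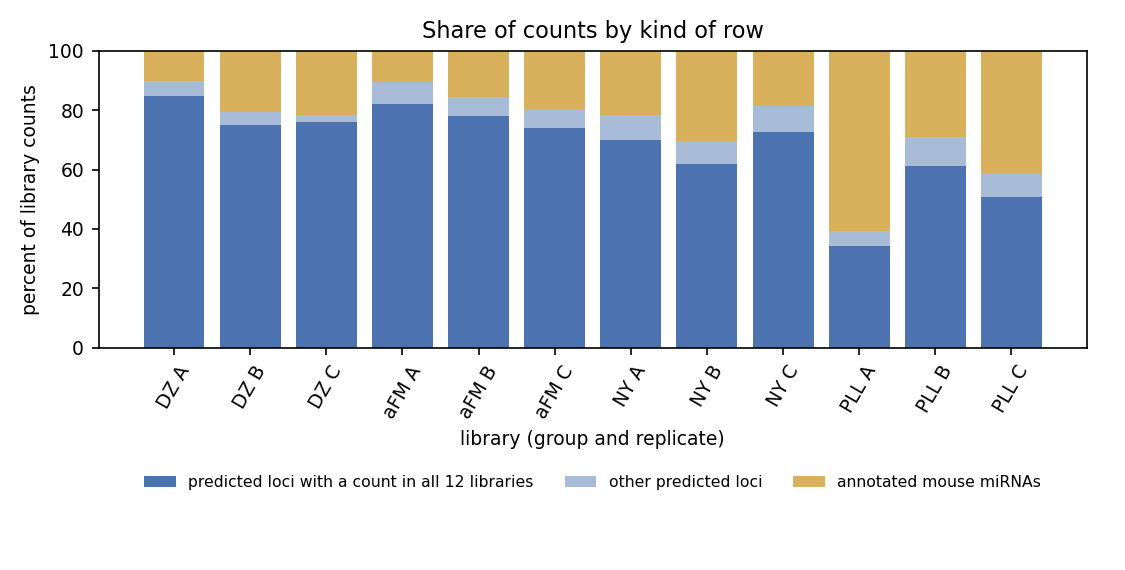
Stacked bars give the percent of each library's counts in predicted loci with a count in all 12 libraries, in other predicted loci and in annotated mouse miRNAs, for the 12 libraries of 4 groups. The first kind runs from 34.1% in PLL A to 84.7% in DZ A.

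Around the rule's threshold the loci were not all faint. In 95 of the 517 the lowest count was 1, and 304 had at least 5 counts in every library. Total counts ran from 49 to 64061 with a median of 678, against a median of 18 for the other predicted loci. The rule favours loci with many counts, so this gap is not a finding. Just inside the threshold, chr11_12659 had 5311 counts in all and 1 in DZ C, chr8_75163 had 3629 and 1 in DZ A, and chr5_62899 had 2873 and 1 in DZ C. Just outside, with a single library at 0, chr16_32169 had 8892 counts, chr15_28202 had 6418 and chr4_55378 had 5645. The missing library was DZ C for chr16_32169 and chr15_28202 and DZ B for chr4_55378. Of 117 predicted loci missed in exactly 1 library, 29 were missed in PLL A, 25 in DZ B, 21 in DZ C and 18 in PLL C, and 0 in aFM A or B.

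The libraries of aFM, NY and PLL resembled each other closely within a group, while those of DZ did not. Over the 517 loci, Pearson r of log2(CPM + 1) between libraries of a group was 0.95 to 0.97 in aFM, 0.95 to 0.96 in NY, 0.93 to 0.94 in PLL and 0.55 to 0.67 in DZ. These are correlations across loci, which are not independent replicates. DZ A was closer to the NY libraries (0.80 to 0.81) than to the other DZ libraries (0.55 and 0.67). DZ B (0.75 to 0.77) and DZ C (0.67 to 0.69) were closer to aFM than to any DZ library, where DZ B had 0.67 at most and DZ C 0.58. The median coefficient of variation of a locus over 3 replicates was 69.9% for DZ, 19% for aFM, 23.5% for NY and 40.4% for PLL, and DZ was the widest group for 366 of 517 loci. For annotated microRNAs with a count in all libraries the same medians were 48.8%, 35.3%, 31.2% and 41.5%. The chi-square per degree of freedom between replicates was 1.49 to 3.30 in PLL, 2.44 to 4.19 in NY, 5.14 to 9.97 in aFM and 85.7 to 124 in DZ. No pair of libraries in a group was therefore treated as copies of 1 library. Comparisons with DZ below rest on 3 libraries that were no more alike than libraries of different groups. Whether the 3 libraries labelled DZ belong to 1 group was not tested, and every direction against DZ below is one against the libraries so labelled. The common biological coefficient of variation of the test was 55.9% with all libraries and 30.3% without DZ, so DZ touches every comparison through the shared spread.

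**Figure D2:**
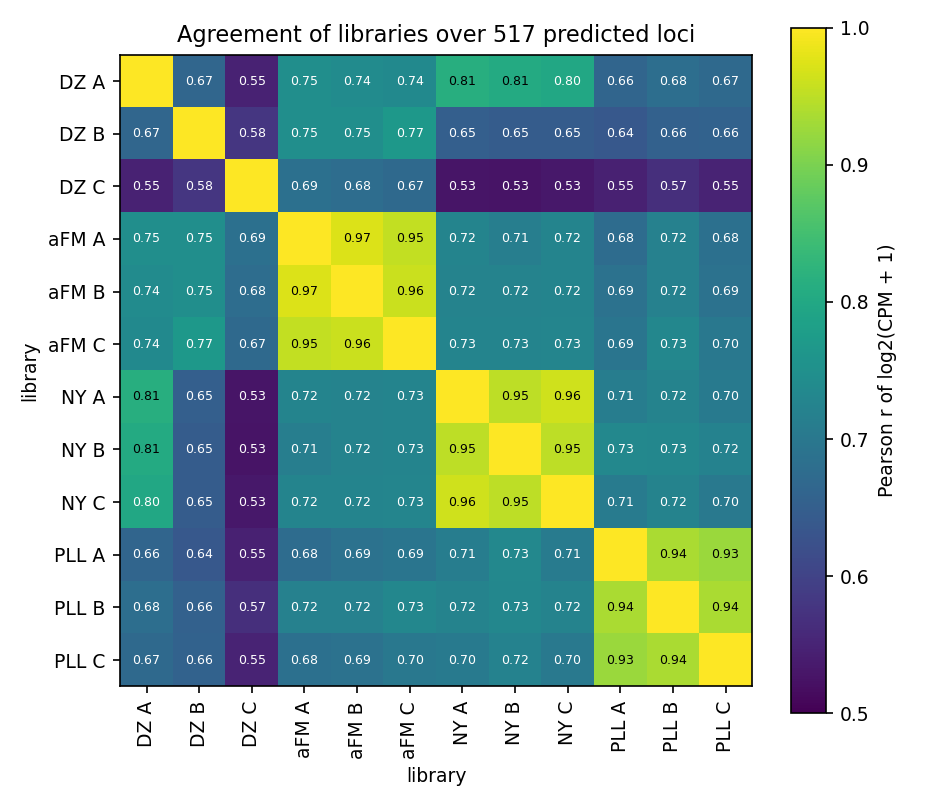
Each cell gives Pearson r of log2(CPM + 1) over the 517 loci between the library of its row and that of its column. Values within aFM, NY and PLL lie between 0.93 and 0.97 and those within DZ between 0.55 and 0.67.

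Some loci peaked in a single DZ library. In 20 of the 517 loci 1 library stood more than 4-fold above every other library, and all 20 of these were DZ libraries: 11 in DZ C, 7 in DZ A and 2 in DZ B. Among 123 annotated microRNAs with a count in every library, 10 had such a library and it was a DZ library for 0 of them. The loci with the largest coefficient of variation over 12 libraries were chr8_75163, chr9_79658 and chr15_30143, each a peak of DZ C. chr8_75163 stood at 29911 CPM in DZ C and at 5.62 and 46.6 in DZ A and B. Its 9 libraries in the other groups lay between 21.6 and 612 CPM. chr9_79658 had 10008 CPM in DZ C against 45 and 326, and chr15_30143 had 14250 against 152 and 280. A pair of other loci followed DZ A and the NY libraries. chr5_60746 had 20787, 8896 and 322 CPM in DZ A, B and C and 22856, 21498 and 23384 in NY, against 542 to 986 in aFM and PLL. chr1_4133 had 20146, 8441 and 235 CPM in DZ and 22243, 21001 and 22869 in NY. These 2 loci were chosen after their values were seen.

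Some loci had the same counts under more than one name. The 517 names made 509 distinct profiles, with 8 pairs of identical counts in all 12 libraries, of which 7 pairs lay on different chromosomes. The most abundant identical pair was chr3_52633 and chr8_75136, each with 7775 counts. Matches of all 12 counts to an annotated microRNA or to a predicted locus outside the 517 numbered 0. Beyond exact copies, 23 pairs of profiles among the 391 with at least 240 counts had r of 0.9956 to 0.9999, and 20 of these pairs lay on different chromosomes. They included chr5_60746 with chr1_4133 (r = 0.9994) and chr10_10147 with chr1_5025 (r = 0.9993), with total counts of 14350 and 13872 and of 21794 and 20927. The 3 loci chr8_74820, chr11_14350 and chr7_71443 held 3886, 3877 and 3882 counts. Such near copies enter every count of loci below as separate members. Whether they share reads was not tested, and any shared read would be counted more than once in sums and library totals. Closeness in number went with no higher likeness, and the median r was 0.12 for 24 neighbouring pairs with numbers up to 5 apart and 0.17 for 472 pairs further apart.

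The loci lay on all 19 autosomes, X and Y. Chromosome 2 had the most, 45 of its 124 predicted loci, followed by 11 with 39 of 102, 5 with 38 of 105 and 9 with 34 of 82. The share in the set was lowest on chromosome 10, 24 of 87 (27.6%), and among the autosomes highest on chromosome 9 (41.5%), while chromosome Y had 2 of 3. Summed levels per chromosome depended on single loci. For aFM chromosome 10 summed to 116382 ± 17725 CPM, against 42118 ± 4841 for DZ, 42424 ± 4029 for NY and 20491 ± 6879 for PLL (SD, n = 3). Without chr10_10531 the aFM sum was 37419 ± 2169 and the DZ sum 38846 ± 2040. Chromosome 2 held 92666 ± 4672 CPM in aFM and 39126 ± 11751 in PLL, and without chr2_48539 it held 29605 ± 1851 and 27466 ± 7904 (SD, n = 3). Chromosome 1 was highest in NY, at 55373 ± 2647 CPM against 27077 ± 1268 in aFM, and chromosome 5 had the highest sum in DZ, NY and PLL, at 107797 ± 13665, 92582 ± 1973 and 76589 ± 14082 CPM (SD, n = 3). In DZ chromosome 15 held 22953 ± 15296 CPM (SD, n = 3), and its locus chr15_30143 alone stood at 14250 CPM in DZ C.

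**Figure D3:**
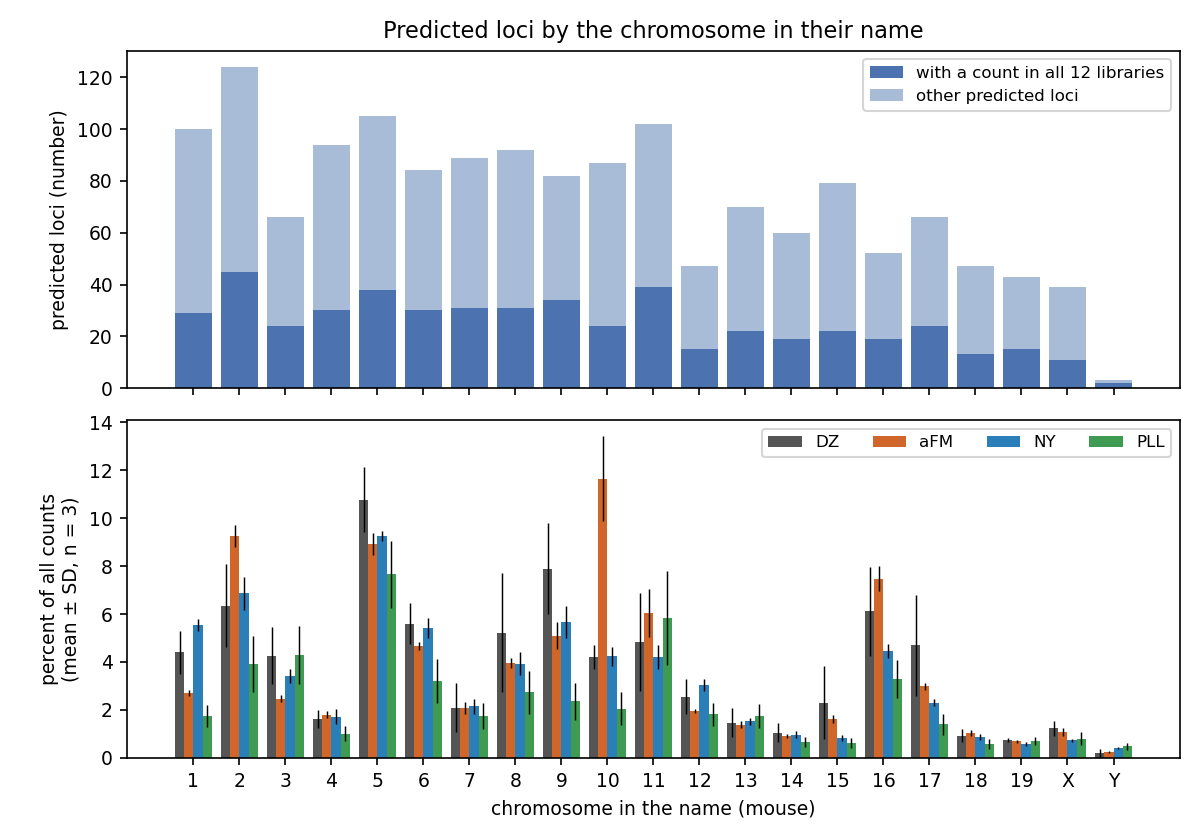
The upper bars count predicted loci by the mouse chromosome in their name, split into those with a count in all 12 libraries and others. The lower bars give the summed level of the former as percent of all counts, mean ± SD of 3 libraries per group. Chromosome 10 stands out in aFM, and the text gives its sum without chr10_10531.

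Averaged over the libraries, 1 locus took 3.59% of all counts, the top 10 took 22.7% and the top 100 took 52.1%. The most abundant, chr2_48539, stood at 31656, 35408 and 25800 CPM in DZ, 59495, 68651 and 61038 in aFM, 40334, 34542 and 38580 in NY and 7544, 15169 and 12266 in PLL. PLL was below every other library, and aFM was above every other library. PLL was lower than aFM (log2 fold change -2.44 ± 0.33 (SE), adjusted p = 0.000141), NY (-1.70 ± 0.32, adjusted p = 0.00181) and DZ (-1.41 ± 0.32, adjusted p = 0.00664), whereas aFM against DZ gave 1.03 ± 0.32 (adjusted p = 0.0546). All adjusted p-values are from edgeR's quasi-likelihood test over 853 rows with Benjamini-Hochberg adjustment, and libraries are scaled by the total of all rows. chr16_32117 had 35946, 62037 and 30216 CPM in DZ, 40242, 49698 and 48716 in aFM, 26820, 27327 and 28465 in NY and 19127, 30031 and 25376 in PLL. aFM and DZ overlapped, as did NY and PLL. The joint test of any difference among groups did not pass for it (adjusted p = 0.0679), and its only comparison under the threshold was PLL against aFM (-0.90 ± 0.33, adjusted p = 0.0466).

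Both chr2_48539 and chr16_32117 had predicted loci as their nearest rows. For chr2_48539 these were chr17_34182 (r = 0.962), chr9_81875 (0.949) and chr13_22701 (0.946), and for chr16_32117 they were chr9_79859 (0.965), chr10_7132 (0.942) and chr16_31511 (0.930), over 12 libraries. The nearest annotated microRNA of chr2_48539 was miR-3960 (0.805), which has been linked to osteoblast differentiation. miR-3960 was faint, with 464 counts over the 12 libraries, 17.4 to 58.3 CPM in DZ and 0 in PLL A. Among 391 profiles with a mean count of at least 20, the nearest row was another locus of the set for 345 (88.2%). It was an annotated microRNA for 15 (3.84%). Of the 541 rows searched, 398 (73.6%) were loci of the set and 84 (15.5%) were annotated. The points of these correlations share libraries, depth and scaling.

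chr5_60294, whose nearest row was let-7c-5p, was steady. It had 18268, 34230 and 24546 CPM in DZ, 17634, 22201 and 28913 in aFM, 28824, 33548 and 28438 in NY and 26581, 28328 and 37001 in PLL. All groups overlapped (joint adjusted p = 0.599). let-7c-5p itself had 6073, 12615 and 14198 CPM in DZ, 5362, 8077 and 11287 in aFM, 13522, 19945 and 12998 in NY and 15601, 12573 and 18311 in PLL. With identical loci taken as 1 profile, chr5_60294 was one of the 5 with the smallest coefficient of variation over 12 libraries, 22.0%, beside chr8_76883 (19.9%), chr6_68022 (21.2%), chr11_15380 (21.4%, identical to chr8_76500) and chr2_44646 (21.7%). Joint adjusted p for these 5 ran from 0.599 to 0.904, which does not show equal levels. chr6_68022 lay between 8379 and 17861 CPM in DZ, 12492 and 15784 in aFM, 14300 and 16010 in NY and 10829 and 17152 in PLL.

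Other abundant loci were uneven. chr9_82037 had 37999, 72343 and 27629 CPM in DZ, 24899, 20942 and 20079 in aFM, 20333, 17040 and 23787 in NY and 4239, 9167 and 6060 in PLL. DZ was above and PLL below all other libraries. It was lower in PLL than in DZ (-2.82 ± 0.43, adjusted p = 0.000441), aFM (-1.76 ± 0.41, adjusted p = 0.00568) and NY (-1.65 ± 0.41, adjusted p = 0.00949). chr5_63114 had 24685, 29864 and 28946 CPM in aFM, 1701, 2164 and 1531 in NY and 9765, 11870 and 13518 in PLL, with 3525, 49667 and 9015 in DZ. NY was below all other libraries and the DZ libraries spanned PLL and aFM. NY was lower than aFM (-3.95 ± 0.74, adjusted p = 0.00161). chr10_10147 stood at 21573, 20957 and 21735 CPM in NY and at 4089, 7225 and 6512 in PLL (PLL against NY -1.85 ± 0.37, adjusted p = 0.00238). chr3_51737 had 19328, 33379 and 29601 CPM in PLL against 7536, 7068 and 8047 in aFM (1.86 ± 0.50, adjusted p = 0.0115). chr11_14119 had 47743 CPM in DZ B and 12206 in NY B, its highest and lowest libraries (joint adjusted p = 0.271).

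**Figure D4:**
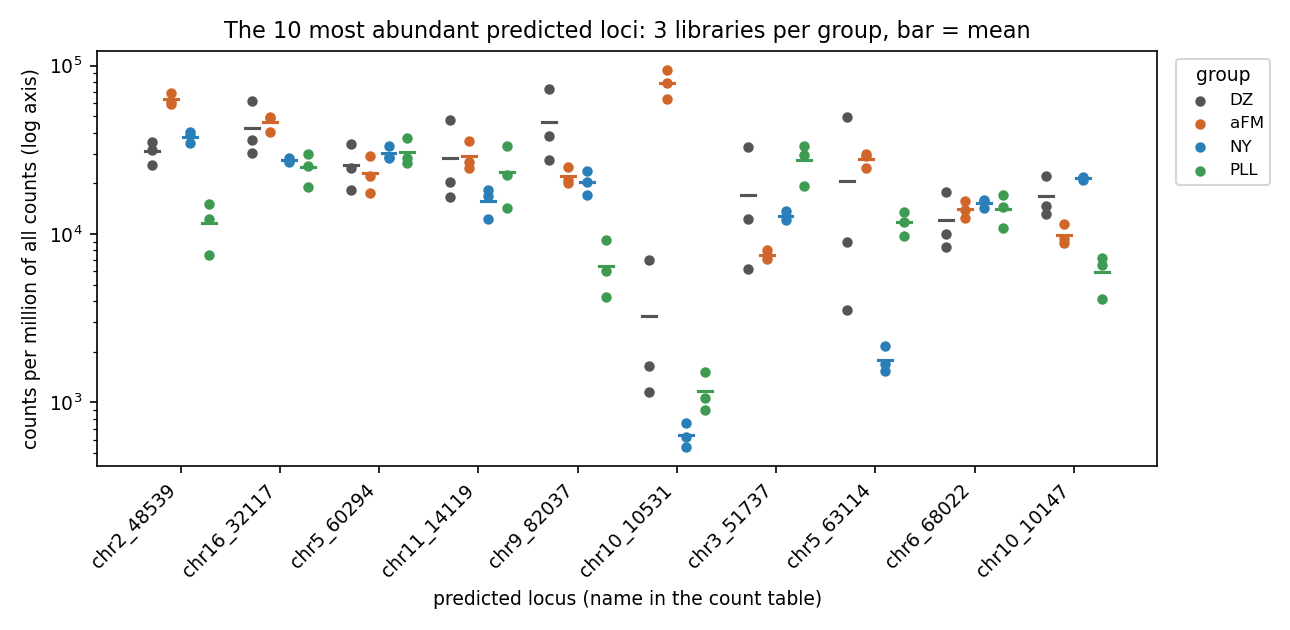
Points give CPM (log axis) of the 10 most abundant loci in each library, coloured by group, and short bars give group means of 3 libraries. chr10_10531 spans from 541 in NY B to 94679 in aFM A, while chr5_60294 stays between 17634 and 37001.

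Of the 517 loci, 496 passed the filter on low counts; the 21 others had 49 to 165 counts in all. The filter asked for about 77 CPM in at least 3 libraries, and 20 loci reached it through 1 group only (7 through aFM, 7 through NY and 6 through PLL), so these could enter the test only by being high there. Among the loci named here they were chr19_40818, chr1_5230 and chr8_75163, through PLL, and chr6_67755, through NY. Of these 496, the joint test called 208 (41.9%), against 49.7% of all 853 rows tested, a share below the background. By the rule, no locus of the set can have a group at 0. Of 141 annotated microRNAs 65 were called. The count for the loci ran from 154 without aFM B to 296 without DZ A when each library was left out in turn.

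The 10 loci of smallest p in the joint test fell into a few patterns, and PLL was the highest group in 6 of them. Among these 6, chr19_40818 and chr1_5230 could enter the test only by being high in PLL. The smallest p of all belonged to chr11_14936. It had 12859, 21203 and 17947 CPM in PLL, 952, 1079 and 1102 in aFM, 225, 58.3 and 157 in DZ and 123, 140 and 79.2 in NY. PLL stood far above the rest and aFM apart from both low groups. Its log2 fold change in PLL was 6.85 ± 0.60 against DZ (adjusted p = 4.38e-06), 7.25 ± 0.61 against NY (adjusted p = 5.38e-06) and 4.05 ± 0.52 against aFM (adjusted p = 8.24e-05), and in aFM against DZ it was 2.79 ± 0.50 (adjusted p = 0.00423). chr1_5326 had 2542, 3621 and 3394 CPM in PLL and between 96.0 and 181 in the 9 other libraries. Even the DZ libraries lay close together here, at 118, 128 and 139 CPM. Its PLL log2 fold changes were 4.62 ± 0.48 against DZ, 4.21 ± 0.46 against aFM and 4.67 ± 0.47 against NY (adjusted p of 1.52e-05, 2.59e-05 and 3.31e-05).

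chr19_40818 had 1698, 1265 and 1835 CPM in PLL and 16.9 to 78.5 elsewhere. It too passed the filter through PLL alone, and the 9 low libraries held few counts (9 in DZ, 19 in aFM and 20 in NY). PLL against DZ gave 5.95 ± 0.65 (adjusted p = 2.33e-05). chr1_5230, which passed the filter through PLL alone, was fainter, with 492, 513 and 889 CPM in PLL and 6.72 to 72.6 in the others (PLL against aFM 4.60 ± 0.68, adjusted p = 0.000272). chr3_48955 had 934, 1686 and 1442 CPM in PLL against 57.7 to 257 elsewhere (PLL against NY 3.93 ± 0.59, adjusted p = 0.000327). chr2_48334 was high in both NY and PLL, at 1103, 1492 and 1221 CPM in NY and 1617, 2240 and 2243 in PLL, against 236, 46.6 and 157 in DZ and 103, 99.1 and 188 in aFM. Both were above DZ, NY by 3.07 ± 0.57 (adjusted p = 0.00237) and PLL by 3.75 ± 0.59 (adjusted p = 0.000456), while their own difference was 0.68 ± 0.52 (adjusted p = 0.353).

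Loci high in aFM were led by chr10_10531, the sixth most abundant of all. It had 94679, 79073 and 63136 CPM in aFM, 1647, 7019 and 1150 in DZ, 620, 541 and 752 in NY and 904, 1521 and 1063 in PLL. Its aFM level differed from DZ (4.60 ± 0.62, adjusted p = 0.000571), and NY (-6.95 ± 0.70, adjusted p = 1.31e-05) and PLL (-6.08 ± 0.67, adjusted p = 2.59e-05) were lower than aFM. chr11_14881 had 499, 455 and 565 CPM in aFM, 202, 122 and 172 in NY, 33.7, 70.0 and 34.8 in DZ and 20.1, 33.1 and 43.7 in PLL. aFM and NY stood apart from each other and from both low groups, which overlapped (PLL against aFM -3.96 ± 0.60, adjusted p = 0.000316). chr2_43794 had 1246, 1021 and 1109 CPM in aFM against 50.5, 43.6 and 85.8 in NY (NY against aFM -4.20 ± 0.65, adjusted p = 0.000509).

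Other loci of smallest p were set apart by low levels. chr6_66179 had 137, 131 and 112 CPM in NY, 462, 628 and 510 in PLL, 2249, 2636 and 3240 in aFM and 1805, 3568 and 6977 in DZ. NY was lowest, PLL next, and aFM and DZ overlapped (NY against DZ -5.01 ± 0.59, adjusted p = 9.17e-05; PLL against NY 2.07 ± 0.53, adjusted p = 0.0116). chr17_34182 had 10, 49.6 and 29.1 CPM in PLL against 1344, 1464 and 1344 in aFM, 264, 665 and 749 in DZ and 706, 480 and 449 in NY. PLL held 9 counts of it in all and was lower than aFM (-5.47 ± 0.66, adjusted p = 5.51e-05), DZ (-4.16 ± 0.64, adjusted p = 0.000451) and NY (-4.13 ± 0.64, adjusted p = 0.000481).

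**Figure D5:**
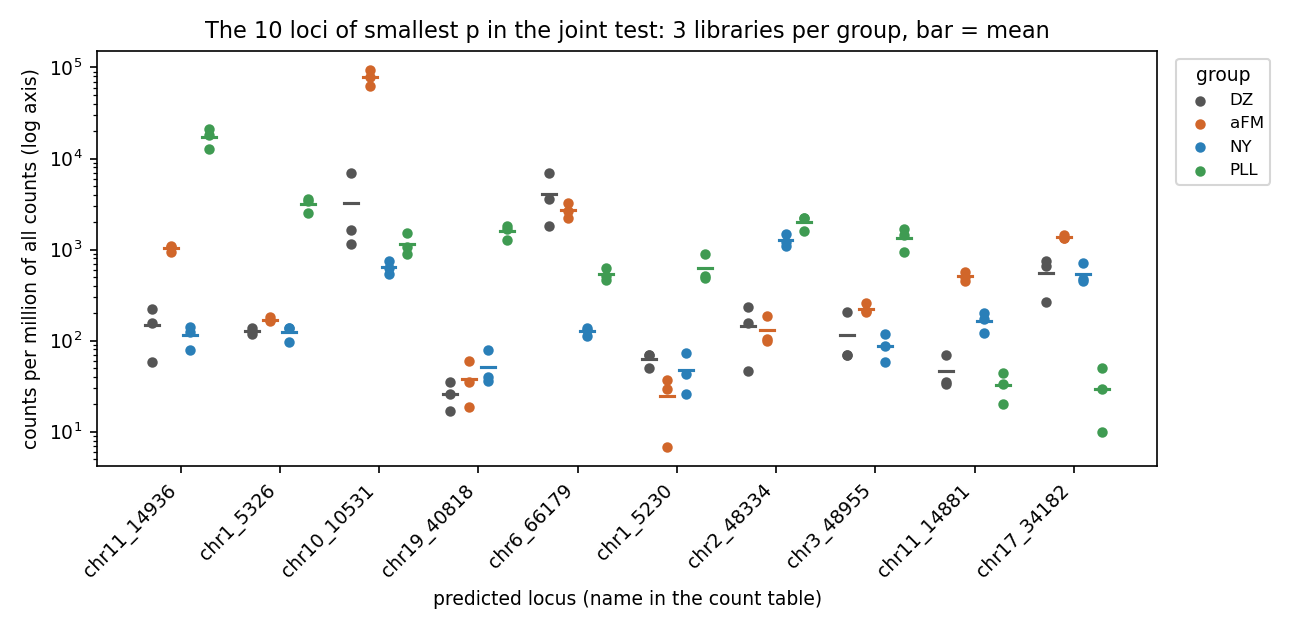
Points give CPM (log axis) in each library for the 10 loci of smallest p in the joint test, coloured by group, with group means of 3 libraries as short bars. In chr11_14936, chr1_5326, chr19_40818, chr1_5230, chr3_48955 and chr2_48334 the 3 PLL libraries sit above the other 9. In chr10_10531, chr11_14881 and chr17_34182 the 3 aFM libraries do.

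Counting loci whose 3 libraries in a group all lay above the other 9 gave 36 of 496 for aFM (7.26%, against 8.44% of all rows), 36 for NY (7.26%, against 8.56%), 17 for PLL (3.43%, against 10.9%) and 10 for DZ (2.02%, against 1.29%). All below the other 9 were 57 loci for PLL (11.5%, against 8.09% of all rows), 15 for aFM (3.02%, against 2.81%), 13 for NY (2.62%, against 2.46%) and 2 for DZ (0.403%, against 1.52%). By group means PLL was lowest for 269 of 517 loci and highest for 69, and no such count was made over all rows. Of the 93 rows of any kind in which PLL was above all other libraries, 43 were annotated microRNAs. These counts hold for scaling by the total of all rows, in which annotated counts are part of the total. Of the 496, 7 passed the filter through aFM only, 7 through NY only and 6 through PLL only. Such loci entered by being high in that group, so lying above the other 9 was likely for them beforehand. Rows outside the set can be at 0 in a group and loci of the set cannot, so the shares are not fully comparable.

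In aFM against DZ, 10 loci were higher and 22 lower, 6.45% of those tested against 8.21% of all rows (4.22% higher and 3.99% lower). In 19 of the 32 the libraries of the groups did not overlap (over all rows 5.63% were called without overlap). After chr10_10531, chr11_14881 and chr11_14936, the next higher locus by p was chr18_38360, at 197, 93.3 and 122 CPM in DZ and at 887, 1056 and 807 in aFM (2.71 ± 0.51, adjusted p = 0.00586). Lower were chr17_36381, with 201, 134 and 222 CPM against 1231, 2693 and 348 (-2.93 ± 0.63, adjusted p = 0.0110), and chr1_3695, with 32.7, 23.3 and 33.6 against 124, 140 and 253 (-2.49 ± 0.58, adjusted p = 0.0181). chr19_41213 (-1.80 ± 0.50) and chr5_63623 (-1.56 ± 0.43) passed with adjusted p = 0.0406 each, and each was lost under 11 of 20 other settings. chr1_3695 was lost without aFM A, B or C, with no filter on low counts and with the replicate block, and chr17_36381 without aFM A or B. The median log2 fold change was -0.10 both in the loci and in all rows. The count rested on single libraries: leaving out DZ A, B or C gave 91, 79 and 49, leaving out aFM A, B or C gave 7, 7 and 8, leaving out NY A, B or C gave 19, 18 and 10, and leaving out PLL B or C gave 16 and 17. Called loci also included one-library peaks such as chr8_75163 (-7.18 ± 1.98, adjusted p = 0.0406), whose groups overlapped.

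NY against DZ gave 12 higher and 35 lower loci, 9.48% of those tested against 11.7% of all rows (5.74% higher and 5.98% lower), and 37 of the 47 did not overlap (10.1% of all rows were called without overlap). chr4_58420 had 742, 628 and 851 CPM in NY against 90, 117 and 69.7 in DZ (3.01 ± 0.53, adjusted p = 0.00199), and chr7_72298 had 800, 454 and 713 against 118, 35.0 and 26.1 (3.37 ± 0.66, adjusted p = 0.00354). In both, NY was above the 9 other libraries. chr6_67755, which passed the filter through NY alone, was faint, at 159, 227 and 198 CPM in NY against 11.2, 11.7 and 34.8 in DZ (3.29 ± 0.67, adjusted p = 0.00449). Lower in NY were chrX_83831, with 86.5, 122 and 66.0 CPM against 1940, 7613 and 1611 (-5.34 ± 0.70, adjusted p = 0.000136), and chr10_7973, with 173, 157 and 238 against 641, 3311 and 4042 (-3.80 ± 0.65, adjusted p = 0.00138). chr11_15308 had 4 counts in NY, at 7.21, 8.73 and 13.2 CPM, against 129, 4372 and 784 in DZ (-7.35 ± 1.18, adjusted p = 0.000909). The median was -0.29 in the loci and 0.00 in all rows. The count was 132 and 80 without DZ A and B and 21, 22 and 17 without NY A, B and C. With library sizes from predicted loci alone, 20 were higher and 34 lower.

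PLL against DZ gave 27 higher and 130 lower loci, 31.7% of those tested against 34.1% of all rows (14.7% higher and 19.5% lower), and 100 of the 157 did not overlap (24.9% of all rows were called without overlap). Besides the loci already described, chr2_47218 was lower, with 40.2, 66.1 and 87.4 CPM in PLL against 905, 839 and 366 in DZ (-3.45 ± 0.58, adjusted p = 0.000847). The median was -0.90 in the loci and -0.45 in all rows, while 56 of 141 annotated microRNAs were higher and 0 lower. With library sizes from predicted loci alone the split was 58 higher and 82 lower, and the medians were -0.37 in the loci and 0.12 in all rows. The count was 70 without PLL A and 78 without PLL C.

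The remaining comparisons leave out DZ, but their test shares its spread. NY against aFM gave 40 higher and 50 lower loci, 18.1% of those tested against 23.8% of all rows (12.1% higher and 11.7% lower), and the libraries of the groups overlapped in 0 of the 90 (23.8% of all rows were called without overlap). chr11_12659 had 12513, 13061 and 10986 CPM in NY against 117, 181 and 168 in aFM (6.29 ± 1.15, adjusted p = 0.00135). It is a locus just inside the rule, with 1400, 163 and 8.71 CPM in DZ. chr6_67755, which passed the filter through NY alone, had 78 counts in NY and 3 in aFM (4.89 ± 0.74, adjusted p = 0.000422). The ratio was 34.3 (95% exact counting interval 11.3 to 170, pooling the libraries of a group). That interval leaves out the spread between libraries. The 3 counts in aFM are also the fewest the rule allows, at least 1 in each library. The interval makes no allowance for that floor, so the ratio only describes these counts. chr7_72436 had 411, 253 and 455 CPM in NY against 56.0, 40.8 and 53.8 in aFM (2.87 ± 0.54, adjusted p = 0.00163). Lower in NY were chr10_10531, chr6_66179 (-4.41 ± 0.57, adjusted p = 0.000165), chrX_83831, with 3430, 4607 and 3200 CPM in aFM (-5.35 ± 0.70, adjusted p = 0.000165), and chr2_43794. The medians were -0.18 in the loci and 0.04 in all rows. With library sizes from predicted loci alone, 53 were higher and 47 lower, with medians of -0.03 and 0.15. The count was 41, 43 and 48 without aFM A, B and C, 38, 42 and 44 without NY A, B and C, and 143 without DZ A. In a fit without the DZ libraries, chosen after seeing the data, it was 241, with 107 higher and 134 lower. The share of all rows called in that fit is not given here or below. Whether the change is particular to the loci therefore cannot be told.

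PLL against aFM gave 37 higher and 111 lower loci, 29.8% of those tested against 36.3% of all rows (17.5% higher and 18.9% lower), and 0 of the 148 overlapped (36% of all rows were called without overlap). Higher were chr1_5326, chr19_40818 (5.39 ± 0.61, adjusted p = 2.93e-05), chr11_14936 and chr1_5230, and lower were chr10_10531, chr17_34182, chr2_48539 and chr11_14881, whose values are given above. Of the higher ones, chr19_40818 and chr1_5230 could enter the test only by being high in PLL. The medians were -0.72 in the loci and -0.47 in all rows. The split of calls moved with the scaling, to 54 higher and 87 lower with TMM factors, 51 and 89 with RLE factors and 64 and 67 with library sizes from predicted loci alone. The count was 84 and 90 without aFM A and B and 89 without PLL A or C, and 274 in the fit without the DZ libraries (66 higher and 208 lower).

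PLL against NY gave 27 higher and 60 lower loci, 17.5% of those tested against 21.7% of all rows (9.61% higher and 12.1% lower), and 86 of the 87 did not overlap (21.3% of all rows were called without overlap). chrX_83831 was higher in PLL, with 2230, 4505 and 3219 CPM (5.17 ± 0.70, adjusted p = 0.000168). Lower were chr14_26279, with 20.1, 33.1 and 72.8 CPM against 663, 480 and 633 in NY (-3.86 ± 0.57, adjusted p = 0.000327), and chr9_82415, with 60.3, 99.2 and 72.8 against 1542, 1475 and 2171 (-4.45 ± 0.75, adjusted p = 0.000843). chr3_49891 was abundant in NY, at 5831, 4214 and 5938 CPM, against 382, 959 and 466 in PLL (-3.14 ± 0.55, adjusted p = 0.00101). The medians were -0.65 in the loci and -0.28 in all rows. The split was 45 higher and 55 lower with TMM factors, 43 and 56 with RLE factors and 52 and 45 with library sizes from predicted loci alone. The count was 53 and 49 without NY A and C, 50 without PLL C and 158, 139 and 143 without DZ A, B and C. The fit without the DZ libraries gave 239, with 56 higher and 183 lower.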

How the data were processed

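Small RNA of vesicles was counted in 12 libraries, 3 in each of 4 groups taken from the titles. The deposited values are raw counts, whole numbers per row and library with no normalization, as the values show. Per the submitters' processing notes, the authors used FastQC, STAR, StringTie and DESeq2 with build mm39. Their versions and roles, the locus caller and any read filter: not given in the sources used here. The loci and lists were chosen with earlier results of these data known. CPM used totals of all rows. Tests used edgeR 4.0.16 in R 4.3.3: filterByExpr (minimum count 10, minimum total 15) kept 853 rows, and 1 quasi-likelihood fit over all libraries had a term per group, totals of all rows as library sizes and no further factors. Tests were two-sided, Benjamini-Hochberg adjusted over the 853 rows, threshold 0.05. SE is the log2 fold change divided by the root of F. On simulated data for PLL against aFM (5 runs, 818 to 855 rows tested) the test found 6.65% of rows changed 2-fold, 42.9% changed 4-fold and 96.1% changed 16-fold. The simulation gave a row the same spread in all groups, estimated with DZ included. In the data DZ was wider than aFM and PLL, and recovery with unequal spreads was not simulated.

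Named loci were the 10 most abundant, the 10 of smallest joint p, up to 4 higher and 4 lower per comparison by p among called loci without overlap, the 5 steadiest and 3 most variable with a mean count of at least 20, 3 on each side of the threshold, and the nearest rows of the top 3. Alternatives were TMM, RLE and upper quartile factors, library sizes from predicted loci, DESeq2 1.42.0, no filter, identical rows merged, at least 5 counts, a replicate block and each library left out. Same-letter libraries correlated from -0.20 to 0.12 in their deviations from the group means. This does not show that letters pair libraries, and with 3 libraries in each group it cannot exclude it. All columns were mapped to a sample.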

Additional observations from a re-analysis of the deposited data

How the results depend on the processing

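Counts of called loci depended on the setting. Of 1184 values of 58 named results under other settings, 1155 kept the call, 29 lost it and 0 reversed direction. The 29 belonged to 4 loci lower in aFM against DZ. The 58 were named for small p in the same data, so kept calls and directions were likely and say nothing of other loci. Results of the joint test have no direction and could not reverse. Joint calls were 154 to 296 with each library left out, against 208. The same ranges were 7 to 91 for aFM against DZ (32), 17 to 132 for NY against DZ (47), 70 to 194 for PLL against DZ (157), 38 to 143 for NY against aFM (90), 84 to 206 for PLL against aFM (148) and 49 to 158 for PLL against NY (87). Keeping only the 304 loci with at least 5 counts in every library gave 131 joint calls, and 19 for aFM against DZ, 22 for NY against DZ, 102 for PLL against DZ, 59 for NY against aFM and 54 for PLL against NY. That setting used the main fit and counted its calls among fewer loci, so it changed no call. For aFM against DZ, TMM factors gave 54, RLE factors 49, upper quartile factors 49 and DESeq2 78. DESeq2 also gave 94 for NY against DZ and 143 for NY against aFM. Without the DZ libraries, a setting added after seeing the data, NY against aFM gave 241, PLL against aFM 274 and PLL against NY 239. Shares of all rows called under other settings are not given here, so whether such changes are particular to the loci cannot be told. Apart from fewer loci or samples entering, the cause was not tested. At 68647 to 214303 counts per library, loci near 1 count rest on few reads. In simulated data with the same spread in all groups, 2-fold changes were seldom recovered.

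With the replicate letter as a block, although the letters were not shown to pair libraries, joint calls were 156, and aFM against DZ gave 11, NY against DZ 30 and PLL against DZ 88. The blocked counts for NY against aFM, PLL against aFM and PLL against NY were 68, 124 and 65. The share of all rows called with the block is not given here. Whether the differences from the unblocked counts are particular to the loci therefore cannot be told.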
